A study of Mus musculus with 27 samples.

Results

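The 10 UDP-glucuronosyltransferase genes examined here were Ugt1a1, Ugt1a6a, Ugt1a6b, Ugt1a9, Ugt2a3, Ugt2b1, Ugt2b5, Ugt2b34, Ugt2b35 and Ugt2b36, which were taken by gene symbol as enzymes able to conjugate 4-methylumbelliferone (4MU). They were 10 of 55414 genes in the count table, and all 10 passed the filter on low counts. They were chosen as enzymes, not by a threshold on their values, and no enzyme activity or 4MU glucuronide was measured in these data. Bulk RNA was sequenced from the livers of 27 female Balb/c mice, which were 8 weeks old and treated for 2 weeks. The 8 groups were control (olive oil and PBS, n = 4), 4MU (600 mg/kg by daily gavage, n = 3), siLuc-LNP (lipid nanoparticles with an siRNA to luciferase, n = 3), siHAS2-LNP (nanoparticles with an siRNA to hyaluronan synthase 2, n = 3), CCl4 (carbon tetrachloride, n = 2), CCl4 + 4MU (n = 4), CCl4 + siLuc-LNP (n = 4) and CCl4 + siHAS2-LNP (n = 4). The siRNA was given at 1 and then at 0.5 mg/kg. CCl4 injures hepatocytes and brings on fibrosis, and the study asked whether less hyaluronan, reached by the drug or by the siRNA, changes that injury.

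UDP-glucuronosyltransferases sit in the endoplasmic reticulum and join glucuronic acid to bilirubin, steroids, phenols and drugs, which can then leave in bile or urine. The donor is UDP-glucuronic acid, which hyaluronan synthases also use, so a drug that is conjugated draws on the same pool as hyaluronan. 4MU is a phenol that the liver turns mostly into its glucuronide. In the Ugt1a cluster each gene has its own first exon for the substrate-binding part and shares the last exons with its neighbours, whereas the Ugt2 members each have exons of their own. Ugt1a1 is the enzyme for bilirubin, Ugt1a6 enzymes take small planar phenols, Ugt1a9 takes bulkier phenols, and Ugt2b enzymes take steroids and many drugs.

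The 4 Ugt1a genes lie on chromosome 1, plus strand, of GRCm39, the assembly named for the deposited counts. The exon spliced ahead of the shared ones spans chr1:87998450-87999400 in Ugt1a9, chr1:88034663-88035521 in Ugt1a6b, chr1:88066100-88067053 in Ugt1a6a and chr1:88139679-88140593 in Ugt1a1. All were joined to the same exon at chr1:88142766-88142897. The sequences at that junction are shown because they explain which reads can be told apart, with the last 40 bases of the own exon in lower case and the first 40 bases of the shared exon in capitals.
Ugt1a1: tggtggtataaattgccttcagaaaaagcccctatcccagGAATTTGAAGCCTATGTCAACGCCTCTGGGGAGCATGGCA
Ugt1a6a: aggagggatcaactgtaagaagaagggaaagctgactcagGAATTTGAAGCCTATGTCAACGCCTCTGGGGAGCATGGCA
Ugt1a6b: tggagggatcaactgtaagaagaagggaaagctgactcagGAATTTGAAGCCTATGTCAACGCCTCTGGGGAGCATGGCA
Ugt1a9: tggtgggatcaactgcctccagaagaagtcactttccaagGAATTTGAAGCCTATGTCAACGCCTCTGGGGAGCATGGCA
The capitals were the same in all 4 genes, and Ugt1a6a and Ugt1a6b differed little in lower case too. Over the whole own exon, Ugt1a6a and Ugt1a6b were 87.3% identical, against 51.5% to 53.2% for the other pairs. Of the 3147 windows of 85 bases, the read length, in the annotated Ugt1a1 transcript, 912 occurred in no other gene. In Ugt1a6a only 50 of 3186 windows did, because an annotated Ugt1a7c transcript covers most of its own exon as well. Few positions of that transcript can therefore be assigned to Ugt1a6a, and its split from Ugt1a6b and Ugt1a7c is uncertain. Over all its annotated transcripts, Ugt1a6a had 2430 exon bases that no other gene overlaps, more than the 954 of its own exon, so most of them lie outside it. Its reads may thus lie elsewhere in the gene, which was not examined. These windows use the GENCODE vM39 annotation, which may differ from the release used for the counts. The antisense gene Gm20528 overlaps 934 bases of Ugt1a1 and had no counts in any of the 27 mice, but no strand setting of the counting is given in the sources used here. The 6 Ugt2 genes lie on chromosome 5, between positions 87037626 and 87485055, and 98.7% to 100% of their windows were their own except in Ugt2b5, where 79.9% were and most of the rest matched Ugt2b38.

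**Figure D1:**
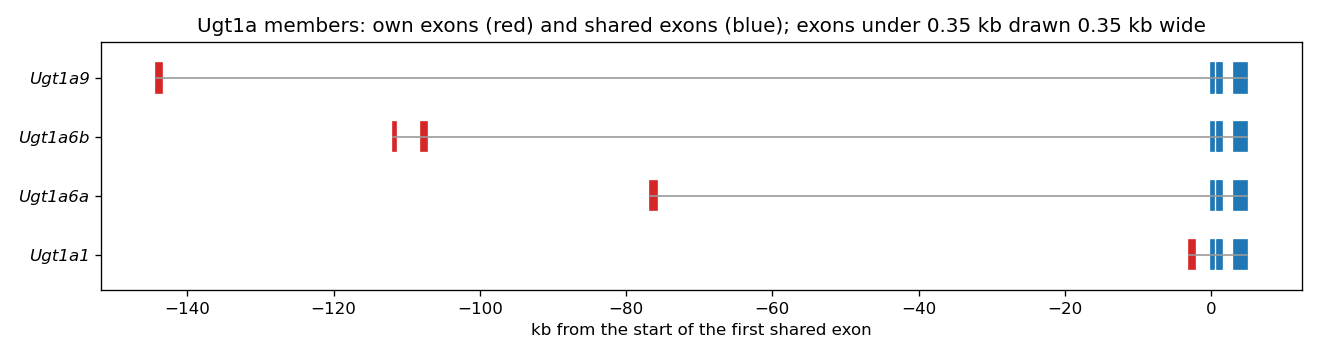
Exons of the 4 Ugt1a genes as annotated in GRCm39, with distance in kb from the start of the first shared exon on the horizontal axis and 1 gene per line. Red boxes are exons of 1 gene and blue boxes are the exons that all 4 genes share, each drawn at least 0.35 kb wide so that close exons merge.

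The libraries held 7044386 to 29425937 counts (median 22109517). Summed hepatocyte markers (Alb, Apoa1, Ttr, Apoh, Serpina1e, Cps1, Tat) ran from 73416 to 199197 CPM (counts scaled to library size and composition) over all mice. Kidney tubule markers summed to at most 0.171 CPM and enterocyte markers (Vil1, Fabp2, Cdx2, Lct) to 42.2 to 227 CPM, so the tissue read mainly as liver. Of 9775 well-counted genes, CCl4 mouse 2 had 8 over 2-fold above and 31 over 2-fold below all other mice, the most of any mouse, followed by siLuc-LNP mouse 1 (5 and 25), 4MU mouse 1 (2 and 21), 4MU mouse 3 (7 and 8) and CCl4 mouse 1 (0 and 14). Mice 4MU 3, siLuc-LNP 1, CCl4 + 4MU 4 and CCl4 + siHAS2-LNP 4 were also left out together, because of their members, other cell types or depth. The first was high in Ugt2 genes and the second low in Ugt1a1, Ugt1a6b and Ugt1a9. The third had 92.5 CPM of the bile duct keratin Krt19, against at most 6.13 in the other 26 mice, and 19.6 CPM of Epcam, against at most 2.39. Krt7, Sox9 and Spp1, the other bile duct markers listed, lay within the range of the other mice. The enterocyte marker Vil1 was at 5.30 CPM in the third, against at most 0.48 in the others. The fourth had the lowest total count. Every mouse was also left out in turn, and calls that this changed are given beside the results.

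Control livers held large amounts of most Ugt2 genes and little of Ugt1a6a, Ugt1a6b and Ugt1a9. The 10 members summed to 2359 ± 162 CPM (SD, n = 4) in control mice, and over all 27 mice the Ugt1a members made up 3.12% to 8.85% of that sum (median 5.60%). That share is of assigned reads, which leave out much of the shared Ugt1a exons. Per kb of exon that no other gene overlaps, the Ugt1a members held 27.7% of the members' summed level in control mice, most of it Ugt1a1. For Ugt1a1 that length was only 375 bases of an own exon of 915, because Gm20528 overlaps the rest. A longer divisor would lower its level and this share. On the same scale Ugt2b36 held 228 ± 13.2 CPM per kb in control mice and Ugt2b5 held 179 ± 13.1 CPM per kb. Below these came Ugt2b34 at 101 ± 16.8, Ugt2b1 at 91.2 ± 10.7 and Ugt2a3 at 89.0 ± 6.30 CPM per kb, whose ranges overlapped from each neighbour to the next. Ugt2b35 followed at 32.5 ± 1.10 CPM per kb, below all of these in every control mouse. Ugt1a6b, Ugt1a9 and Ugt1a6a closed the order at 17.8 ± 7.48, 10.5 ± 8.08 and 4.97 ± 1.02 CPM per kb, again with ranges that overlapped between neighbours. Ugt1a1, the enzyme that conjugates bilirubin, could not be placed. It was at 242 ± 83.0 CPM per kb of the exon bases that no other gene overlaps and at 28.1 ± 9.63 CPM per kb of all its exons.

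The promoters that follow are shown for Ugt1a6a, Ugt2b35, Ugt2b5 and Ugt2b36 only, from 250 bases before to 50 after the RefSeq start, 5′ to 3′. They come from RefSeq for GRCm38.p6 and each matched 1 place in GRCm39, which is the build of the positions given. The Ugt1a6a window lies upstream of the own exon at chr1:88066100-88067053 and does not touch it, so it surrounds another start of that gene. Ugt2b1, called in every arm, is not among those shown. Capitals mark any of 5 motifs found on either strand: TNGCGTG (aryl hydrocarbon receptor), TGACNNNGC (core of the antioxidant response element), GTTAAT (part of the HNF1 site, ATTAAC on the other strand) and AGGTCA or AGTTCA (core letters of nuclear receptor sites).
Ugt1a6a, chr1:88062281-88062580, plus strand: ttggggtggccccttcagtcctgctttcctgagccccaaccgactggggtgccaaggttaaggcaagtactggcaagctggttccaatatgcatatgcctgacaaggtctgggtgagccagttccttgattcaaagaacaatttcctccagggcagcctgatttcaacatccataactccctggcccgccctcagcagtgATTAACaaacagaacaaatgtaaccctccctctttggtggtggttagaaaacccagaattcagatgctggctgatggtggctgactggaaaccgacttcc
Ugt2b35, chr5:87148469-87148768, plus strand: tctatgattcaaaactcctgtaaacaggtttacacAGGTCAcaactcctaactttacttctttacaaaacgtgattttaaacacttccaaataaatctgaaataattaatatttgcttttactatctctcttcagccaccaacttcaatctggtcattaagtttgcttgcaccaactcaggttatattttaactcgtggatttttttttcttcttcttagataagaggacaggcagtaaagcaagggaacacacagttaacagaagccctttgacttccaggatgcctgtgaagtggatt
Ugt2b5, chr5:87288150-87288449, minus strand: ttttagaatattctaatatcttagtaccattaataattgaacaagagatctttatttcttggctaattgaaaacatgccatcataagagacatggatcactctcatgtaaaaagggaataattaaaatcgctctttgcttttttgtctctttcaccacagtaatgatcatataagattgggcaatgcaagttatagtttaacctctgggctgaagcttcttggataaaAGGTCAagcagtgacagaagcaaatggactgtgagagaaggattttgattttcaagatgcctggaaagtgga
Ugt2b36, chr5:87240365-87240664, minus strand: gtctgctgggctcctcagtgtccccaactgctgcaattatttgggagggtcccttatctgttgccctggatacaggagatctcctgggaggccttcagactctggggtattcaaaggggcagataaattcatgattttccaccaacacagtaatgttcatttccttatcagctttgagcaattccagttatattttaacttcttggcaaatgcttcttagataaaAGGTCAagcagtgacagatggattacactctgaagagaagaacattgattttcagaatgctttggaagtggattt
Ugt2b5 and Ugt2b36 held AGGTCA 22 and 25 bases before the start, followed by the same agcagtgacag. Ugt2b35 held it 215 bases before the start. GTTAAT was found in 4 of the 9 members with a promoter in the table (Ugt1a1, Ugt1a6a, Ugt1a9 and Ugt2a3), against 7.1% of all 32851 promoters, and in the first 3 it lay 41 to 91 bases before the start. AGGTCA was in 4 of 9, against 16.3% of all promoters, and AGTTCA in 2 of 9, against 14%. TNGCGTG (5.07% of all promoters) and TGACNNNGC (12.4%) were in none of the 9, which says only that these letters are not in these windows. These matches are a description of letters and were not tested.

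**Figure D2:**
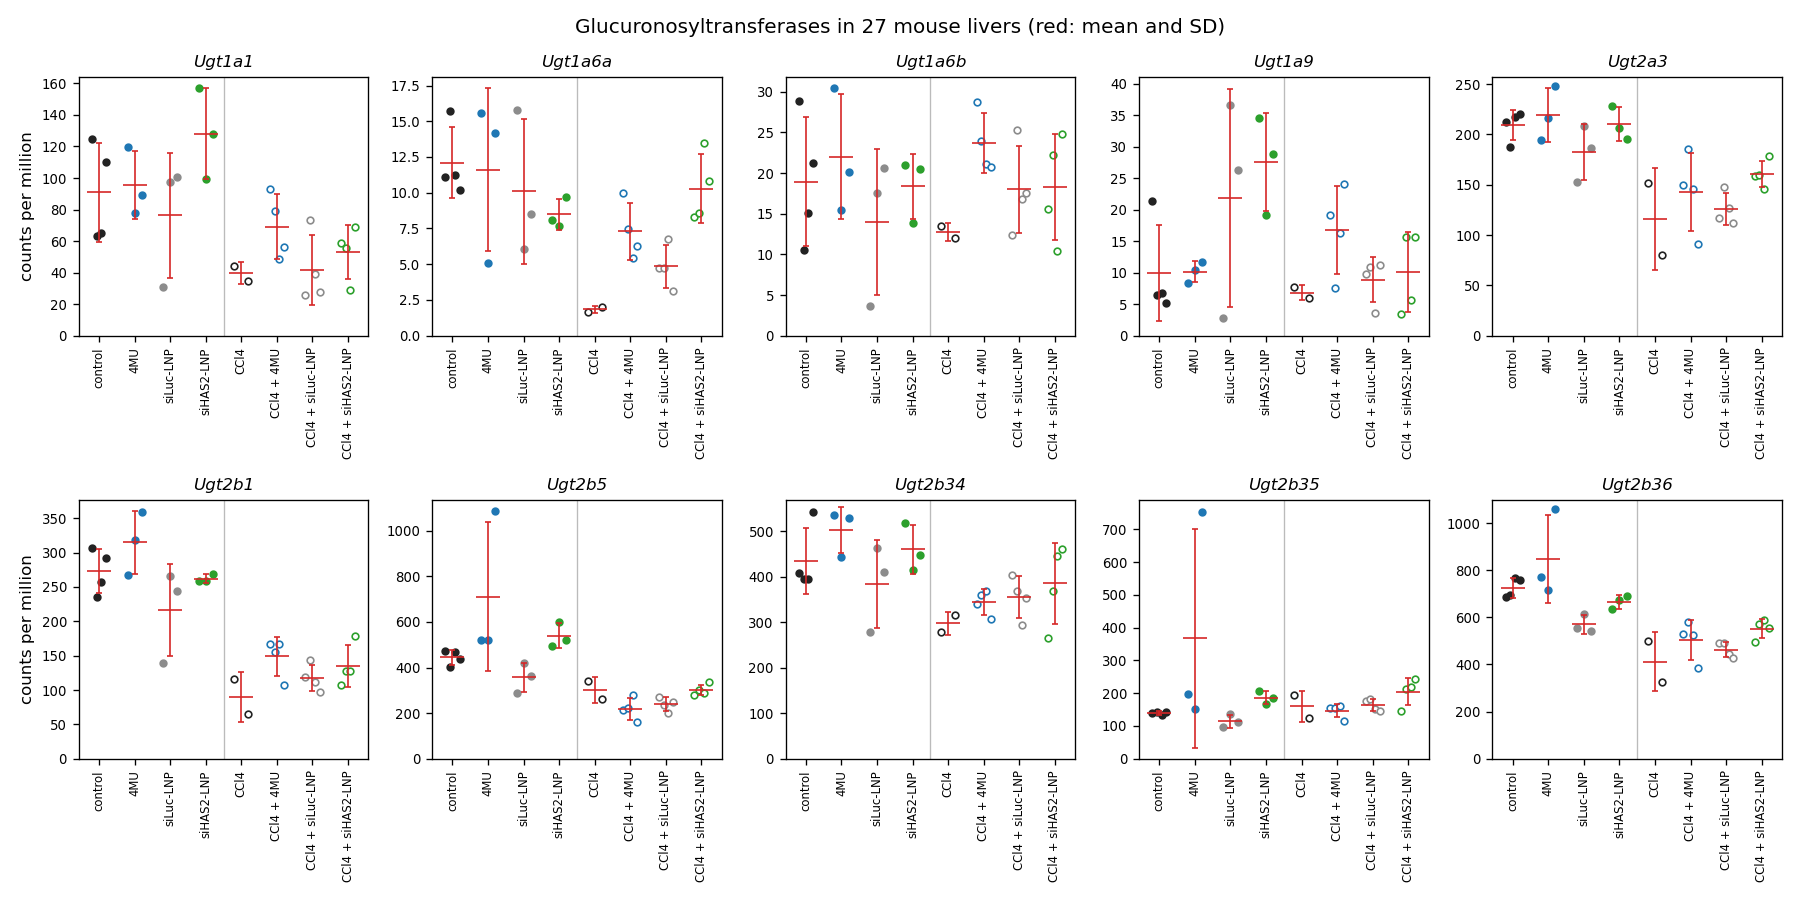
CPM of each member (vertical axis, linear from 0) in every mouse of the 8 groups (horizontal axis), 1 panel per gene, with filled points for mice without CCl4, open points for CCl4 mice and the mean and SD in red. Both CCl4 mice lie below all 4 control mice in Ugt1a1, Ugt1a6a, Ugt2a3, Ugt2b1, Ugt2b5, Ugt2b34 and Ugt2b36, and Ugt2b35 of 1 mouse given 4MU stands far above all others.

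Several of these enzymes fell with CCl4. Against control, 5 of 10 members fell in CCl4 mice (Ugt1a1, Ugt1a6a, Ugt2a3, Ugt2b1 and Ugt2b36) and none rose, where 16.1% of all 14114 genes tested fell. The members' median log2 fold change was −0.69, against −0.02 over all genes. Only 2 mice received CCl4 alone, and their spread was estimated together with that of the other groups.

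Ugt1a6a, whose product conjugates small planar phenols such as 4MU, fell furthest. It was at 11.1, 15.7, 11.3 and 10.2 CPM in the 4 control mice and at 1.65 and 2.03 CPM in the 2 CCl4 mice, which rested on 34 and 54 reads. Both CCl4 mice lay far below every mouse without CCl4, and the log2 fold change was −2.70 ± 0.44 (SE, adjusted p = 4.35e-05). Without either CCl4 mouse it was still −2.55 or −2.84.

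Ugt2b1 was at 306, 235, 258 and 291 CPM in control mice and at 115 and 64.4 CPM in CCl4 mice. The groups did not overlap, and its log2 fold change was −1.60 ± 0.27 (adjusted p = 6.85e-05). Ugt1a1 was at 125, 63.5, 65.3 and 110.1 CPM in control mice and at 44.5 and 34.7 CPM in CCl4 mice. The groups again lay apart, but the controls varied widely, and the change of −1.20 ± 0.45 was close to the threshold (adjusted p = 0.0428). This call was lost without control mouse 1 or 4, without either CCl4 mouse and by limma-voom, with log2 fold changes of −1.0 to −1.37.

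Ugt2b36, with the most CPM of the members in control mice, was at 685, 695, 766 and 758 CPM in control mice and at 501 and 324 CPM after CCl4, which is −0.82 ± 0.19 on the log2 scale (adjusted p = 0.00178). Ugt2a3 was at 212, 188, 217 and 220.2 CPM in control mice and at 152 and 80.2 CPM in CCl4 mice, a change of −0.85 ± 0.23 (adjusted p = 0.00632). In both genes CCl4 mouse 2 was the lower one. Without that mouse only Ugt1a6a and Ugt2b1 were still called, that is 2 of 10 members.

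The other members did not pass in this comparison. Ugt2b34 (−0.55 ± 0.22, adjusted p = 0.0519) and Ugt2b5 (−0.56 ± 0.25, adjusted p = 0.084) were lower in both CCl4 mice than in every control mouse. Both passed without the 4 mice left out together (adjusted p = 0.0394 and 0.0159). Those 4 hold no control or CCl4 mouse, so leaving them out acts mainly through the shared spread. 4MU mouse 3 was among them for its high Ugt2 genes, so these passes are no separate support. Ugt1a6b (−0.57 ± 0.45) and Ugt1a9 (−0.54 ± 0.70) overlapped between the groups, and Ugt1a9 turned to 0.15 without control mouse 1, whose 21.5 CPM stood above 5.19 to 6.74 CPM in the other controls. Ugt2b35 was at 133 to 144 CPM in control mice and at 194 and 125 CPM in CCl4 mice, 1 above and 1 below all controls.

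The CCl4 effect averaged over the 4 arms used all 27 mice and was known more closely. In this average 7 of 10 members fell, where 25.6% of all genes fell, and none rose. Ugt2b1 fell by 1.13 ± 0.12 on the log2 scale (adjusted p = 1.48e-08), Ugt1a6a by 1.04 ± 0.18 (adjusted p = 2.61e-05), Ugt1a1 by 0.95 ± 0.20 (adjusted p = 0.000291) and Ugt2b5 by 0.91 ± 0.11 (adjusted p = 2.49e-07). Smaller falls were those of Ugt2a3 (−0.60 ± 0.10), Ugt2b36 (−0.53 ± 0.08) and Ugt2b34 (−0.37 ± 0.10). Ugt1a6b (95% interval −0.45 to 0.38) and Ugt2b35 (−0.47 to 0.23) did not pass, and nor did Ugt1a9 (−0.65 ± 0.31, adjusted p = 0.0835). Ugt1a9 did pass with no filter on low counts. It also passed without siLuc-LNP mouse 1 (−0.78, adjusted p = 0.0157) and without the 4 mice left out together (−0.87, adjusted p = 0.0132). That mouse is among the 4 and was picked partly for its low Ugt1a9, so the passes without it are no separate support.

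**Figure D3:**
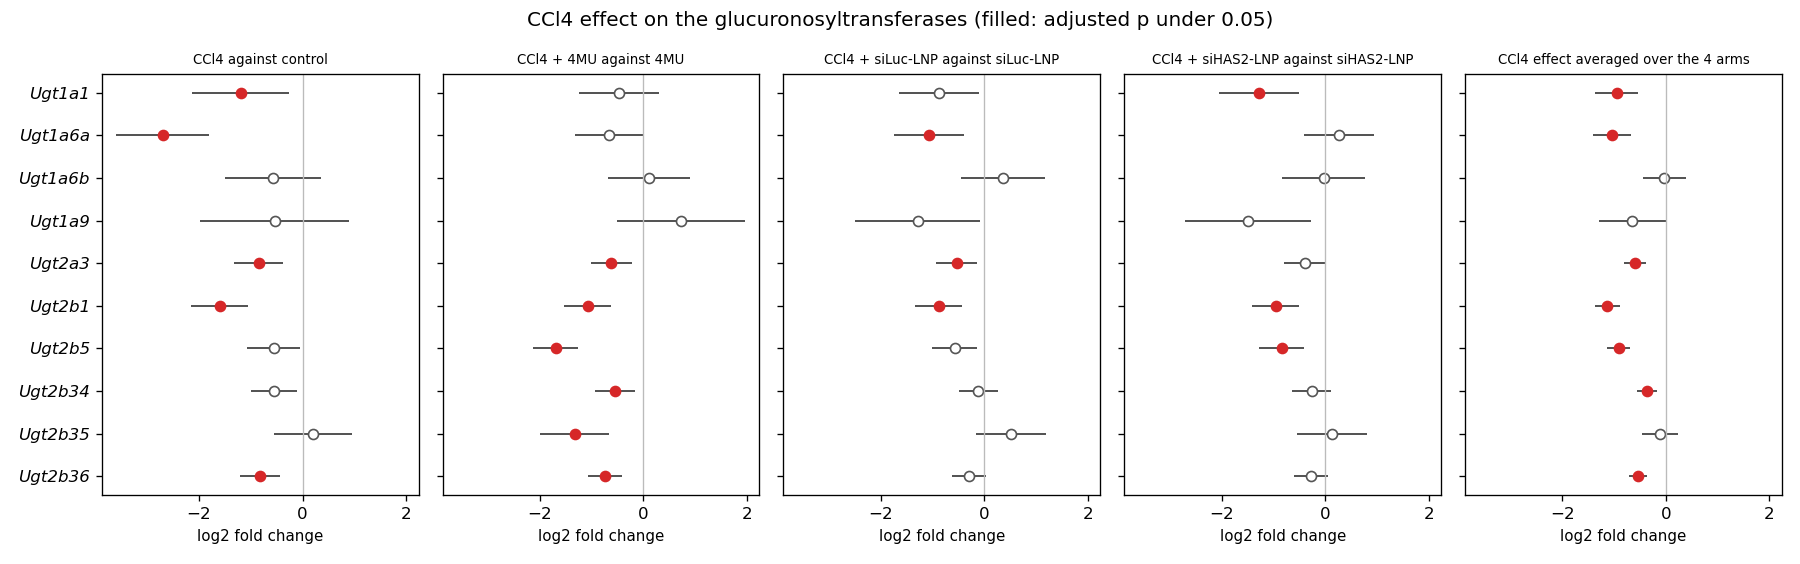
Log2 fold change with its 95% confidence interval (horizontal axis) for the 10 members in the CCl4 effect of each arm and in the average, 1 panel per comparison. Filled red points have an adjusted p under 0.05, and Ugt2b1 is filled on the lower side in all 5 panels.

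Ugt2b1 fell in every arm. Ugt1a6b and Ugt1a9 passed in no arm, and the other members passed in some arms only. Between the 4MU groups 6 of 10 members fell in CCl4 mice, all of them Ugt2 genes, where 10.5% of all genes fell. Between the siLuc-LNP groups 3 of 10 members fell (Ugt1a6a, Ugt2a3 and Ugt2b1), where 11.2% of all genes fell, and between the siHAS2-LNP groups 3 of 10 fell (Ugt1a1, Ugt2b1 and Ugt2b5), where 5.09% did. Passing in 1 arm and not in another is no test of a difference between arms, and only the 4MU arm was tested for one.

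In the 4MU arm, Ugt2b5 fell most. It was at 522, 521 and 1088 CPM in 4MU mice and at 213, 224, 281 and 161 CPM in CCl4 + 4MU mice. Every CCl4 + 4MU mouse was below every 4MU mouse, with a log2 fold change of −1.69 ± 0.21 (adjusted p = 2.97e-06), and of −1.25 without 4MU mouse 3. Ugt2b35 changed by −1.33 ± 0.32 (adjusted p = 0.00419), which rested on 4MU mouse 3 and was −0.26 (adjusted p = 0.42) without it. Without that mouse 3 of 10 members were called (Ugt2b1, Ugt2b5 and Ugt2b36), and without the 4 mice left out together 2 were (Ugt2b1 and Ugt2b5). The calls of Ugt2a3 and Ugt2b34 were lost in several other settings as well.

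In the siLuc-LNP arm the calls of Ugt1a6a and Ugt2a3 were easily lost. Ugt1a6a was at 15.8, 6.03 and 8.52 CPM in siLuc-LNP mice and at 4.74, 4.74, 6.78 and 3.15 CPM in CCl4 + siLuc-LNP mice, so the groups overlapped (−1.07 ± 0.33, adjusted p = 0.0191). Without siLuc-LNP mouse 1 its change was −0.60 (adjusted p = 0.238), and the called members were then 5 (Ugt1a1, Ugt1a9, Ugt2a3, Ugt2b1 and Ugt2b5). That mouse stood out for low Ugt1a1 and Ugt1a9, so their calls without it are no separate support. The call of Ugt2a3 (adjusted p = 0.0474) was lost with DESeq2 size factors (0.0538), with no filter, with filterByExpr, with the replicate number as a block (0.0947), with only the compared groups and without any of 5 single mice. Without CCl4 + siLuc-LNP mouse 4, Ugt2b1 was the 1 member called.

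In the siHAS2-LNP arm Ugt1a6a did not pass. It was at 8.07, 7.68 and 9.74 CPM without CCl4 and at 8.29, 8.58, 13.5 and 10.8 CPM with CCl4, and the 95% interval of the log2 fold change ran from −0.40 to 0.95. Ugt1a1, in contrast, was at 157, 99.2 and 128 CPM without CCl4 and at 59.1, 55.3, 29.0 and 69.1 CPM with it. These groups did not overlap, and Ugt1a1 fell by 1.27 ± 0.38 on the log2 scale (adjusted p = 0.0256). The call was lost without siHAS2-LNP mouse 1 or 3 (adjusted p = 0.105 and 0.0625) and without CCl4 + siHAS2-LNP mouse 2 or 3 (0.0509 and 0.0890), with log2 fold changes of −1.06 to −1.30. That of Ugt2b5 was lost without siHAS2-LNP mouse 2 (−0.77, adjusted p = 0.0525), and Ugt1a9 (−1.49 ± 0.59, adjusted p = 0.0997) passed without the 4 mice left out together (−1.76, adjusted p = 0.0315). Those 4 include siLuc-LNP mouse 1, picked partly for its low Ugt1a9, so that pass is no separate support.

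Other cells and states of the tissue moved with CCl4. In CCl4 against control, 4 of 5 stellate cell genes and 3 of 3 cell cycle genes rose, 2 of 5 cholangiocyte genes rose, and 4 of 7 hepatocyte genes (Alb, Ttr, Apoh and Tat) fell. Over all 14114 genes, 4806 passed in either direction and 16.1% fell. Summed cell cycle markers were at 4.60 to 8.75 CPM in control mice and at 201 to 434 CPM in CCl4 mice, and summed stellate markers at 33.7 to 64.9 and at 392 to 636 CPM. Summed hepatocyte markers were at 161475 to 199197 CPM in control and at 73416 to 129186 CPM in CCl4 mice. In bulk tissue fewer hepatocytes and less RNA per hepatocyte cannot be told apart, and the part of either in the falls of the members was not tested.

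4MU alone changed no member beyond the threshold. None of the 10 passed in 4MU against control, where 0.00709% of all genes (1 of 14114) passed by edgeR's quasi-likelihood test. At an unadjusted p under 0.05 there were 2 members and 966 genes, and DESeq2 called 1 member, Ugt2b35, and 49 genes. The log2 fold changes of Ugt1a1 (95% interval −0.70 to 0.85), Ugt1a6a (−0.73 to 0.60) and Ugt2a3 (−0.34 to 0.47) lay near 0. For Ugt2b1 the interval was −0.24 to 0.66 and for Ugt2b36 −0.11 to 0.55. Summed hepatocyte markers were at 125797 to 154682 CPM in 4MU mice, below all control mice, and their part in these values was not tested.

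Ugt2b35 and Ugt2b5 had the largest values in this comparison, and much of both rested on 1 mouse. Ugt2b35 was at 139.5, 144, 133 and 142 CPM in control mice and at 199, 152 and 753 CPM in 4MU mice, with a log2 fold change of 1.40 ± 0.32 (adjusted p = 0.18). The value of 4MU mouse 3 was 3.11 times the highest of the other 26 mice. Without that mouse the change was 0.33 (adjusted p = 0.951). Ugt2b5 was at 471, 401, 468 and 439.7 CPM in control mice, below all 3 values in 4MU mice, with a change of 0.68 ± 0.21 (adjusted p = 0.39) and of 0.23 without mouse 3.

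The high Ugt2b35 in that mouse came with other genes. Ugdh, which makes UDP-glucuronic acid from UDP-glucose, was at 329 CPM, against at most 173 CPM in the other 26 mice. Ugp2, which makes UDP-glucose, was at 770.2 CPM (at most 555 elsewhere), and Slc35d1, which carries UDP-glucuronic acid into the endoplasmic reticulum, at 199.7 CPM (at most 157 elsewhere). Slc35b1, also listed for the donor's supply, was not highest there. This mouse was singled out by its values, and the share of all genes highest in it was not counted. Gclc, which starts glutathione synthesis, was at 850.4 CPM (at most 375 elsewhere) and Nqo1 at 24.9 CPM (at most 18.9 elsewhere). Both are known targets of Nfe2l2, the factor that answers oxidative stress. Cyp3a11, a known target of Nr1i2 (PXR), was highest in this mouse too, at 3823 CPM (at most 2978 elsewhere), as were the factor Hnf4a and the carrier Slco1b2. The other marker targets listed, Cyp2b10, Cyp1a1, Cyp1a2, Cyp4a10 and Cyp4a14, lay within the range of the other mice. Srxn1 (172 CPM, at most 71.9 elsewhere) and Txnrd1 (258 CPM, at most 138 elsewhere), further targets of Nfe2l2, were named after their values were seen, among the genes furthest above the other mice. Why this mouse differed was not tested.

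**Figure D4:**
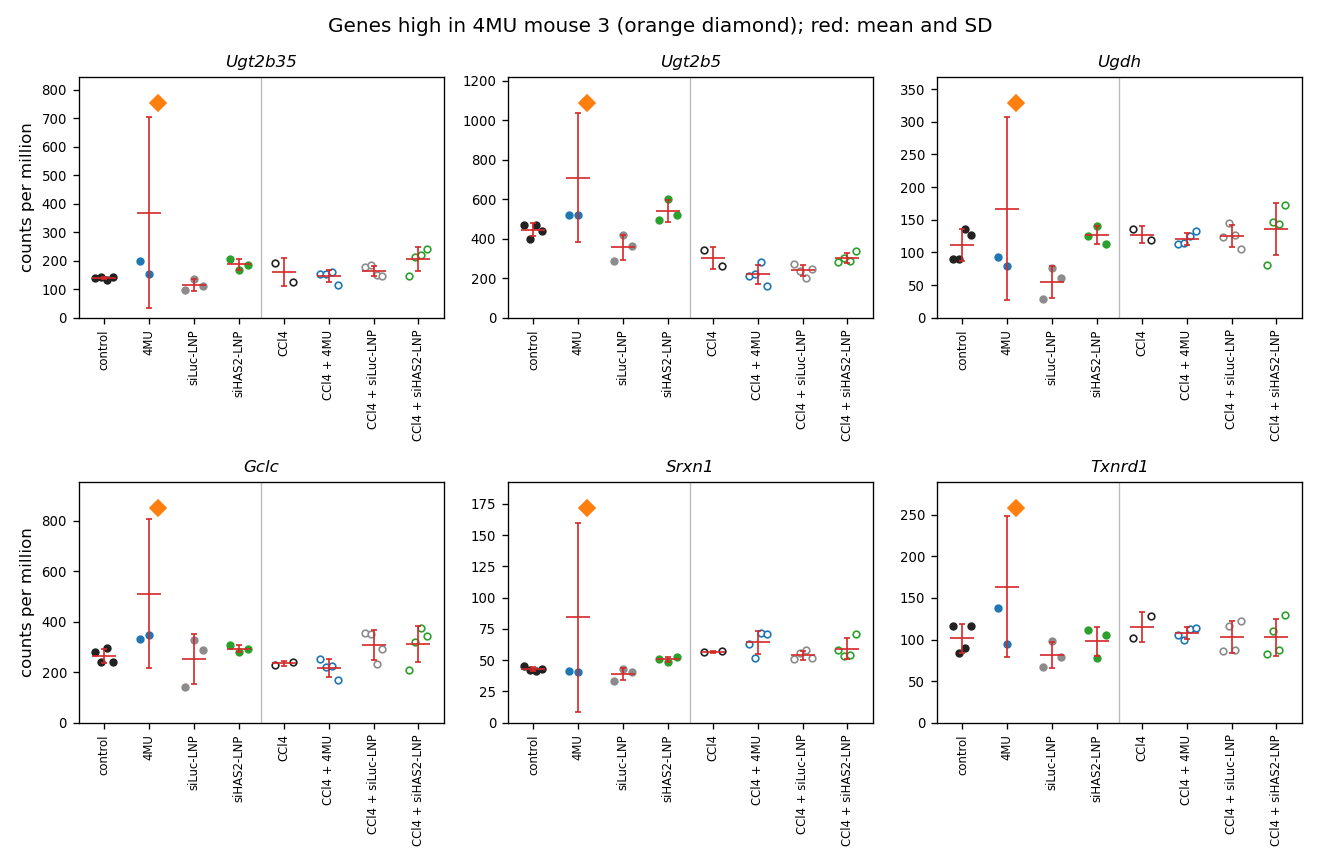
CPM (vertical axis, linear from 0) of Ugt2b35, Ugt2b5, Ugdh, Gclc, Srxn1 and Txnrd1 in every mouse of the 8 groups (horizontal axis), with mean and SD in red and 4MU mouse 3 as an orange diamond. In all 6 genes this mouse lies above the other 26 mice, while the other 2 mice given 4MU alone lie lower.

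With CCl4, 4MU went with more Ugt1a6a. Against CCl4 alone, 2 of 10 members rose in CCl4 + 4MU mice (Ugt1a6a and Ugt2b1), where 8.28% of all genes rose, and none fell. Ugt1a6a was at 1.65 and 2.03 CPM in CCl4 mice and at 9.97, 7.47, 5.43 and 6.29 CPM in CCl4 + 4MU mice. The groups did not overlap, and Ugt1a6a rose by 1.97 ± 0.43 on the log2 scale (adjusted p = 0.00348). Without CCl4 mouse 2 the change was as large (2.1) with an adjusted p of 0.0708, and no member was then called, with 1 mouse left in that group.

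Ugt2b1 rose by 0.73 ± 0.26 (adjusted p = 0.0489) from 115 and 64.4 CPM to 167, 155, 167 and 108 CPM, and these values overlapped. Its call was lost with DESeq2's size factors (adjusted p = 0.0602), with the replicate number as a block and without CCl4 mouse 2 (0.34). Ugt1a1 was at 93.1, 78.8, 48.5 and 56.3 CPM and Ugt1a6b at 28.8, 23.9, 21.2 and 20.8 CPM in CCl4 + 4MU mice, all above both CCl4 mice, but neither passed (0.80 ± 0.44, adjusted p = 0.205, and 0.89 ± 0.46, adjusted p = 0.171). Ugt2b5 was at −0.46 ± 0.24 (adjusted p = 0.172).

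The effect of 4MU differed between livers with and without CCl4 for 2 of 10 members, where 5.67% of all genes passed the test of that interaction. For Ugt1a6a the interaction was 2.03 ± 0.53 on the log2 scale (adjusted p = 0.0319), with −0.06 ± 0.32 without CCl4 and 1.97 ± 0.43 with it. For Ugt2b5 it was −1.14 ± 0.32 (adjusted p = 0.038), with 0.68 ± 0.21 without CCl4 and −0.46 ± 0.24 with it. The call of Ugt1a6a was lost without either CCl4 mouse (adjusted p = 0.0657 and 0.136) and without CCl4 + 4MU mouse 1 (adjusted p = 0.0593), without control mouse 2 and without 4MU mouse 2, while its size stayed between 1.67 and 2.18. That of Ugt2b5 was lost without 4MU mouse 3 (−0.69, adjusted p = 0.125), without either CCl4 mouse, without control mouse 1, 2 or 4, without CCl4 + 4MU mouse 1, 2 or 4, by limma-voom, with only the compared groups and with the replicate number as a block. Without the 4 mice left out together the interactions were 2.25 for Ugt1a6a (adjusted p = 0.0616) and −0.59 for Ugt2b5 (adjusted p = 0.169), so no member was called in this test.

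**Figure D5:**
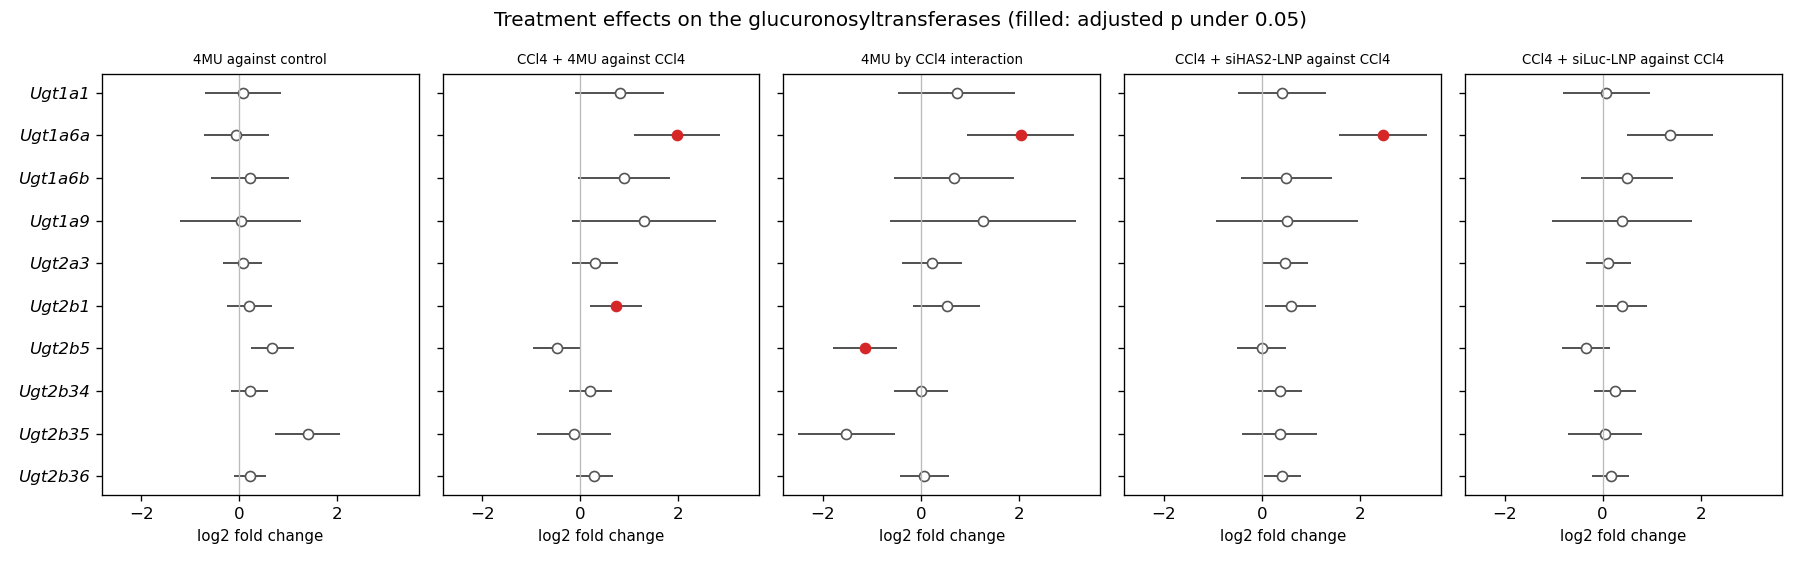
Log2 fold change with its 95% confidence interval (horizontal axis) for the 10 members under 4MU or nanoparticles, 1 panel per comparison. Filled red points have an adjusted p under 0.05, which Ugt1a6a reaches in CCl4 + 4MU and in CCl4 + siHAS2-LNP, both against CCl4.

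Nanoparticles with the HAS2 siRNA went with more Ugt1a6a too. Against CCl4, 1 of 10 members (Ugt1a6a) rose in CCl4 + siHAS2-LNP mice, where 7.11% of all genes rose. Ugt1a6a was at 8.29, 8.58, 13.5 and 10.8 CPM there, all above both CCl4 mice, and rose by 2.47 ± 0.44 (adjusted p = 0.00131). This comparison shares its 2 CCl4 mice with that of CCl4 + 4MU. Without CCl4 mouse 1, Ugt2a3, Ugt2b1 and Ugt2b36 passed as well, that is 4 of 10 members. In the same comparison 3 of 5 stellate, 4 of 6 macrophage, 1 of 5 cholangiocyte, 1 of 4 endothelium and 1 of 3 cell cycle genes fell and 0 of 7 hepatocyte genes passed by edgeR, and their part in the rise of Ugt1a6a was not tested. Over all 14114 genes, 2038 passed in either direction, of which 1003 rose and the rest fell.

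With the control nanoparticles no member passed. Against CCl4, 0 of 10 members passed in CCl4 + siLuc-LNP mice by edgeR's quasi-likelihood test, where 0.248% of all genes passed. At an unadjusted p under 0.05 there were 1 member, Ugt1a6a, and 2001 of 14114 genes, and DESeq2 called 1 member, Ugt1a6a, and 289 genes. Its 4 values there, 3.15 to 6.78 CPM, were all above both CCl4 mice (1.37 ± 0.42, adjusted p = 0.133). Against CCl4 + siLuc-LNP, Ugt1a6a in CCl4 + siHAS2-LNP mice was higher in 4 of 4 mice but did not pass (1.09 ± 0.31, adjusted p = 0.0777). In that comparison 0 of 10 members passed by edgeR, where 1.09% of all genes did. At an unadjusted p under 0.05 there were 1 member and 2349 of 14114 genes, and DESeq2 called 1 member and 412 genes. The 95% interval of that difference in Ugt1a6a was 0.46 to 1.73 on the log2 scale, before adjustment over genes.

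No member passed between the nanoparticle groups without CCl4. In siLuc-LNP against control 0 of 10 members passed by edgeR, where 0.213% of all genes did. At an unadjusted p under 0.05 there were 1 member and 960 of 14114 genes, and DESeq2 called 0 members and 67 genes. In siHAS2-LNP against siLuc-LNP 0 of 10 passed by edgeR, where 0.0425% of all genes did. At an unadjusted p under 0.05 there were again 1 member and here 1262 genes, and DESeq2 called 0 members and 75 genes. Ugt1a9 spread most in these groups, with 2.80, 36.6 and 26.3 CPM in siLuc-LNP mice and 34.6, 19.2 and 28.8 CPM in siHAS2-LNP mice. Leaving aside siLuc-LNP mouse 1, these values were above 3 of the 4 control mice, but the change against control was 1.14 ± 0.59 (adjusted p = 0.773).

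Between the drug and the HAS2 siRNA under CCl4 no member passed. In CCl4 + 4MU against CCl4 + siHAS2-LNP 0 of 10 members passed by edgeR, where 1.22% of all genes did. At an unadjusted p under 0.05 there were 1 member and 2629 of 14114 genes, and DESeq2 called 0 members and 505 genes. Ugt2b5, that 1 member, was at 161 to 281 CPM in CCl4 + 4MU mice and at 282 to 336 CPM in CCl4 + siHAS2-LNP mice, with a change of −0.46 ± 0.20 (adjusted p = 0.214). Ugt1a6a had an interval of −1.12 to 0.13.

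Other Ugt genes fell with CCl4 as well. Of 12 other Ugt genes, 6 had enough counts. In the averaged CCl4 effect 4 of these fell, where 25.6% of all genes fell, and none rose. Ugt3a2 fell by 2.66 ± 0.26, Ugt1a5 by 1.97 ± 0.40, Ugt3a1 by 1.62 ± 0.14 and Ugt2b38 by 0.71 ± 0.23 on the log2 scale. Ugt3a1 and Ugt3a2 belong to a family that uses sugars other than glucuronic acid. Ugt1a5 was at 33.3 to 156 CPM in control mice and at 6.47 to 9.38 CPM in CCl4 mice, so within the shared Ugt1a cluster Ugt1a5, Ugt1a6a and Ugt1a1 fell while Ugt1a6b did not pass. None of the 6 passed in 4MU against control or in CCl4 + 4MU against CCl4.

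Genes that supply the donor and move glucuronides split in the averaged CCl4 effect, with 4 of 10 higher and 4 of 10 lower (median log2 fold change 0.12). Of all genes, 26.3% rose and 25.6% fell. Gusb, the lysosomal enzyme that cleaves glucuronides, rose by 0.98 ± 0.09. Abcc2 (0.71 ± 0.10) and Abcg2 (0.52 ± 0.07), pumps of the bile canaliculus, rose, whereas Abcc3 (−0.74 ± 0.13), a pump towards the blood, fell. The uptake carriers Slco1b2 (−1.02 ± 0.10) and Slco2b1 (−0.66 ± 0.08) fell. Ugp2 fell by 0.38 ± 0.11 and Slc35b1, a nucleotide carrier of the endoplasmic reticulum, rose by 0.46 ± 0.08, while Ugdh and Slc35d1 did not pass. In CCl4 + 4MU against CCl4, Slco2b1 rose by 0.98 ± 0.19, and Ugp2 (−0.71 ± 0.24), Slc35b1 (−0.86 ± 0.17) and Abcg2 (−0.81 ± 0.16) fell, while 0 of 10 passed in 4MU against control.

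Of 12 regulators known to act on Ugt genes, 2 rose and 3 fell in the averaged CCl4 effect, no more than the shares of all genes that rose (26.3%) and fell (25.6%). The nuclear receptor Nr1i3 (CAR) fell by 1.30 ± 0.18, Cebpa by 0.65 ± 0.14 and Foxa2 by 0.29 ± 0.11, and Nfe2l2 (0.61 ± 0.07) and Arnt (0.39 ± 0.07) rose. In CCl4 + 4MU against CCl4 4 of 12 rose and none fell, where 8.28% of all genes rose and 10% fell. Those that rose were Nr1i3 (1.86 ± 0.42), Nr1i2 (PXR, 1.02 ± 0.26), the aryl hydrocarbon receptor Ahr (0.82 ± 0.20) and Foxa2 (0.82 ± 0.24). None of the 12 passed in 4MU against control. Of 8 marker targets of these factors, Cyp1a2 fell by 1.16 ± 0.19 and Cyp4a10 by 1.85 ± 0.34 and Cyp1a1 rose by 1.14 ± 0.26 in the averaged CCl4 effect, so the Ahr targets moved both ways. Cyp1a2 (adjusted p = 0.0227) and Nqo1 (1.24 ± 0.29) rose in CCl4 + 4MU against CCl4. In that comparison 3 of 7 hepatocyte markers (Alb, Ttr and Tat) also rose and 3 of 3 cell cycle markers fell, and their part in the changes of the members was not tested.

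Among the members, Ugt2a3 and Ugt2b36 were most alike over the 27 mice, with a root mean square difference of 0.17 between their centred log2 CPM. The least spread was that of Ugt2b34 (SD 0.30 on the log2 scale over 27 mice) and the most that of Ugt1a9 (SD 1.02). Outside the lists, the gene nearest to Ugt2b1 was Ces1c (difference 0.21), a carboxylesterase, followed by Cyp4f14 (0.25). Nearest to Ugt2b5 were Akr1c14 (0.26) and Cyp2c68 (0.31), to Ugt2a3 Car8 (0.18) and Acadsb (0.19), and to Ugt1a1 Suox (0.33) and Dpyd (0.36). Ugt2b35 was nearest to Ikbkg (0.31) and Srxn1 (0.33), both also high in 4MU mouse 3. For Ugt2b34 these genes were Man1a (0.16) and Nudt12 (0.17), for Ugt2b36 Vps37a and Gpbp1l1 (0.17 each), for Ugt1a6b Lrrc41 (0.24) and Thtpa (0.27), and for Ugt1a6a Akap8l (0.35) and BC024386 (0.36). Ugt1a9 had no close neighbour, the nearest being Cldn2 (0.67) and Acsf2 (0.71).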

How the data were processed

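Gene counts of the 27 livers were deposited by the authors as raw counts per Ensembl gene. Per the labels and the study's methods, polyA RNA was sequenced as paired-end reads of at least 85 bases, trimmed (Trimmomatic 0.39), aligned (HISAT2, GRCm39) and assigned to genes by featureCounts in R 3.4.2, leaving out reads mapped to several places. That drops reads shared by near-identical Ugt exons. Groups came from the labels, and nothing says whether litters or cages were shared. Of the 55414 genes, 54749 had a name in the GENCODE vM39 annotation, and all 27 columns were mapped.

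The 14114 genes that averaged 10 counts or more per mouse were fitted together over all 27 mice with 1 mean per group by edgeR 4.0.16 (TMM scaling, quasi-likelihood test, R 4.3.3). P-values were adjusted over all tested genes by Benjamini and Hochberg, with a threshold of 0.05 in 14 comparisons. The SE was the log2 fold change divided by the square root of F. CPM used TMM-scaled totals, and log2 CPM a prior count of 2. Alternatives were DESeq2 1.42.0, limma 3.58.1 (voom with sample quality weights), DESeq2 size factors, no filter, filterByExpr, a replicate block, only the compared groups and leaving out each mouse. The fit was tested on simulated data. Pairs of mice in 1 group differed beyond counting noise (chi-square per degree of freedom 15.3 to 416 over 34 pairs). Mice with the same number did not deviate together, so they were not paired.

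The members and lists were chosen with earlier results of these data known. All 10 members were named in every comparison. Genes of the other lists were named where they passed in the averaged CCl4 effect, 4MU against control or CCl4 + 4MU against CCl4, together with the 2 genes nearest to each member in centred log2 CPM, predicted genes left out. Leaving out 4 mice together was added after the data were seen. Ugt1a6b had no promoter in the table used.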

Additional observations from a re-analysis of the deposited data

Results flagged for a closer look

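In 40 sets of 4 mice, 3 values stood far from the other mice of their group by Dixon's test, which chance flags in about 1 of 20 groups. Ugt1a9 was at 21.5 CPM in control mouse 1, above 5.19 to 6.74 CPM in the other 3. Ugt2b34 was at 543 CPM in control mouse 4, against 394 to 407 CPM in the other 3. Ugt2b35 was at 116 CPM in CCl4 + 4MU mouse 4, below 155 to 161 CPM in the other 3, and this is the library with high Krt19 and Epcam. The groups of 2 or 3 mice, which hold the high Ugt2b35 of 4MU mouse 3, were not tested this way.

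For Ugt1a6a the effect of 4MU differed between livers with and without CCl4 by 2.03 on the log2 scale (95% interval 0.94 to 3.13), and for Ugt2b5 it differed by −1.14 (95% interval −1.79 to −0.48).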

How the results depend on the processing

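The number of members called was recomputed in 233 alternatives over the 14 comparisons and stayed within 1.5 times in 195. It did so in all of them for the averaged CCl4 effect, CCl4 + siHAS2-LNP against siHAS2-LNP, siHAS2-LNP against siLuc-LNP and CCl4 + 4MU against CCl4 + siHAS2-LNP. Of 1097 alternative log2 fold changes of members, 984 kept direction and side of the threshold, 41 became called, 71 were no longer called and 1 reversed, which was Ugt1a9 in CCl4 against control (0.15 without control mouse 1, and −0.75 at the other end, without control mouse 4). These cover only the 61 pairs of member and comparison that passed or had a log2 fold change of at least 0.5 in size. Pairs nearer 0, where the sign turns easily, were not counted, so the few reversals partly follow from that choice.

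Leaving out 1 mouse at a time gave 2 to 5 members in CCl4 against control, 3 to 6 in CCl4 + 4MU against 4MU, 1 to 5 in CCl4 + siLuc-LNP against siLuc-LNP, 0 to 1 in 4MU against control, 0 to 3 in CCl4 + 4MU against CCl4, 0 to 3 in the interaction, 0 to 1 in CCl4 + siLuc-LNP against CCl4 and 1 to 4 in CCl4 + siHAS2-LNP against CCl4. DESeq2 called 1 member in 4MU against control, 1 in CCl4 + siLuc-LNP against CCl4 and 1 in CCl4 + siHAS2-LNP against CCl4 + siLuc-LNP. With no filter these were 1, 1 and 1, with 1 in siLuc-LNP against control and 5 in CCl4 + 4MU against CCl4. DESeq2 size factors and filterByExpr gave 1 member each in CCl4 + 4MU against CCl4, and limma-voom gave 1 in the interaction. Fitting only the compared groups gave 1 in the interaction and 1 in CCl4 + siLuc-LNP against siLuc-LNP. Leaving out together mice 4MU 3, siLuc-LNP 1, CCl4 + 4MU 4 and CCl4 + siHAS2-LNP 4, an alternative chosen after seeing the data, gave 2 in CCl4 + 4MU against 4MU, 5 in CCl4 + siLuc-LNP against siLuc-LNP and 0 in the interaction. The causes were not tested.

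With the replicate number as a block, 1 member was called in CCl4 + 4MU against CCl4 and 1 in the interaction (Ugt1a6a in both), against 2 without it, and Ugt2a3 was lost in CCl4 + siLuc-LNP against siLuc-LNP (adjusted p = 0.0947), leaving 2 of 3. Over 34 pairs of mice with the same number, deviations correlated at −0.32 to 0.21, so the numbers do not pair mice. Counted over all exons, the control level was 28.1 CPM per kb for Ugt1a1, 2.16 for Ugt1a6a and 5.40 for Ugt1a6b. Ugt1a6a rested on 34 to 336 reads per mouse, which limits its precision.

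Counts over all genes also moved. Against 800 genes in the interaction, 37 passed without those 4 mice and 1448 by DESeq2. In 4MU against control up to 136 genes passed (no filter), against 1, and in siHAS2-LNP against siLuc-LNP up to 171 (limma-voom), against 6. The range over these settings was 10 to 143 in siLuc-LNP against control (30 as reported), 1 to 427 in CCl4 + siLuc-LNP against CCl4 (35), 0 to 656 in CCl4 + siHAS2-LNP against CCl4 + siLuc-LNP (154) and 18 to 1024 in CCl4 + 4MU against CCl4 + siHAS2-LNP (172). It reached down to 1782 in CCl4 + 4MU against 4MU (3349), 1518 in CCl4 + siLuc-LNP against siLuc-LNP (3418) and 1322 in CCl4 + siHAS2-LNP against CCl4 (2038), and up to 3455 in CCl4 + siHAS2-LNP against siHAS2-LNP (1812).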
